A study of Mus musculus with 8 samples.

Results

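The gene group described here comprised 43 genes of mitosis, covering the kinases and cyclins of mitotic entry, the chromosomal passenger complex, the kinetochore and spindle checkpoint, partners of the anaphase-promoting complex, mitotic kinesins, spindle and midzone proteins, cytokinesis factors and chromosome structure proteins. They were taken as a list of symbols matched to Ensembl mouse gene IDs, by a rule that uses no measured value, although the list was drawn up with results of these data known. All 43 were found among the 47729 genes of the neural stem cell (NSC) table and among the 40562 genes of the astrocyte table. RNA sequencing was performed on cultures from S89G-DMP1 mice and wild type (WT) mice of the C57BL/6 strain, aged 10 weeks according to the labels. The paper's methods instead give 3 months, and both genders, for the mice of the astrocyte cultures. S89G-DMP1 is a knock-in point mutation that replaces serine 89 of dentin matrix protein 1, a secreted proteoglycan, with glycine and so removes a glycosylation site. The mutant line was made in C57BL/6J embryonic stem cells, the selection cassette was then removed, homozygous mutants came from crosses of heterozygotes, and every cell of the mutant carries the change, since no Cre or tissue promoter was used. NSCs came from the subventricular zone and grew as neurospheres in serum-free medium with N2 supplement, with 3 libraries a genotype. Astrocytes came from the cortex and grew with serum, with 1 library a genotype.

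Cells enter mitosis when Cdk1 bound to cyclin B becomes active. Polo-like and Aurora kinases take part in the maturing of the centrosomes and in mitotic entry, and the chromosomes condense. Kinetochores then attach the chromosomes to spindle microtubules, and the spindle checkpoint holds the cell until attachment is complete. The anaphase-promoting complex with Cdc20 next marks cyclin B and securin for destruction, and kinesins, the central spindle and the contractile ring complete the division. Transcripts of these genes accumulate in G2 and M phase and are low in quiescent cells, so in brain cultures they are commonly read as markers of dividing progenitors.

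The NSC libraries held 2354615 to 2588130 counts, of which the 43 genes took 0.747% to 0.772% in the WT and 0.899% to 0.952% in the S89G libraries. The astrocyte libraries held 14008670 counts for WT and 13016924 for S89G. The labels and methods do not say whether the 3 NSC libraries of a genotype came from separate mice or cultures, so p-values measure the spread between these libraries, which may be technical. Dmp1, the mutated gene, was counted 18, 21 and 16 times in the WT NSC libraries and 6, 3 and 5 times in the S89G libraries (log2 fold change -1.90 ± 0.38, adjusted p = 1.3e-04; values after ± are the SE of the fit over 3 libraries a genotype unless named as SD). In astrocytes it was counted 2 times in WT and 119 times in S89G, a ratio of 52.3 with an exact 95% counting interval of 14.2 to 437. The direction for Dmp1 thus differed between the cell types, and a point mutation predicts neither level, so the gene does not check the labels. In every NSC library the stem cell genes Nes and Sox2 were present and the microglial list stayed below 1 CPM in sum. The library labelled WT astrocytes held 8 counts of Aqp4, 8 of Slc1a3 and 90 of Gfap, against 4051, 3877 and 901 in the S89G library. The astrocyte markers Aqp4 and Slc1a3 were thus near 0 in the WT library, while S100b, of the same list, was higher there.

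In S89G NSCs the transcripts of the mitotic machinery were higher across every role. Their summed level was 7764, 7509 and 7583 CPM (counts relative to library size, scaled by TMM) in the WT libraries and 9289, 9061 and 9592 CPM in the S89G libraries, a ratio of 1.22. The WT and S89G libraries did not overlap. Of the 43 genes, all of which passed the filter on low counts, 36 rose at an adjusted p under 0.05 (quasi-likelihood test of edgeR, adjusted by Benjamini-Hochberg over 11194 genes) and 0 fell, where 7.08% of all tested genes rose and 8.76% fell. In 39 of the 43 every S89G library was above every WT library, against 14.8% of all tested genes. The fitted log2 fold change was above 0 for all 43, against 50.6% of all tested genes, and its median was 0.29, against 0.0026 over all tested genes. The changes were small and even, from 0.07 for Kif18a to 0.49 for Ccnb2, that is 4.91% to 40.2% higher. In bulk RNA, a larger share of dividing cells and more mitotic RNA per dividing cell cannot be told apart.

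The number of calls varied with the fit. Leaving out each of the 6 libraries in turn gave 27 to 33 genes called higher, and 23 of the 36 kept the call in all 6 fits. DESeq2 called 22 genes higher, all of them among the 36, with 3.11% of all tested genes called higher. On the deposited TPM (the authors' level corrected for length and depth), limma called 1 gene, Ckap2l, with 0.339% of all tested genes called higher, and 40 of the 43 remained above 0. Astrocyte genes moved in the same libraries, since the summed level of the 10 astrocyte markers was 1830.2 to 1881 CPM in WT and 2352 to 2394 CPM in S89G, with Aldh1l1, Gja1 and Slc1a3 called higher. The summed fibroblast markers were 197 to 218 CPM in WT and 121 to 129 CPM in S89G, with Col1a2, Dcn and Lum at 0 counts in all 6 libraries and Thy1 and Pdgfra called lower. The summed mural markers were 175 to 178 CPM in WT and 112 to 136 CPM in S89G, and Cspg4, the 1 that could be tested, was called lower. Of 9 tested stem cell markers 3 were called higher, among them Fabp7 and Egfr, and 0 lower, of 4 neuronal markers Syt1 was called lower, and Flt1, the 1 endothelial marker tested, was called higher. Over all tested genes 7.08% were called higher and 8.76% lower. The part of any of these markers in the mitotic result was not tested.

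**Figure D1:**
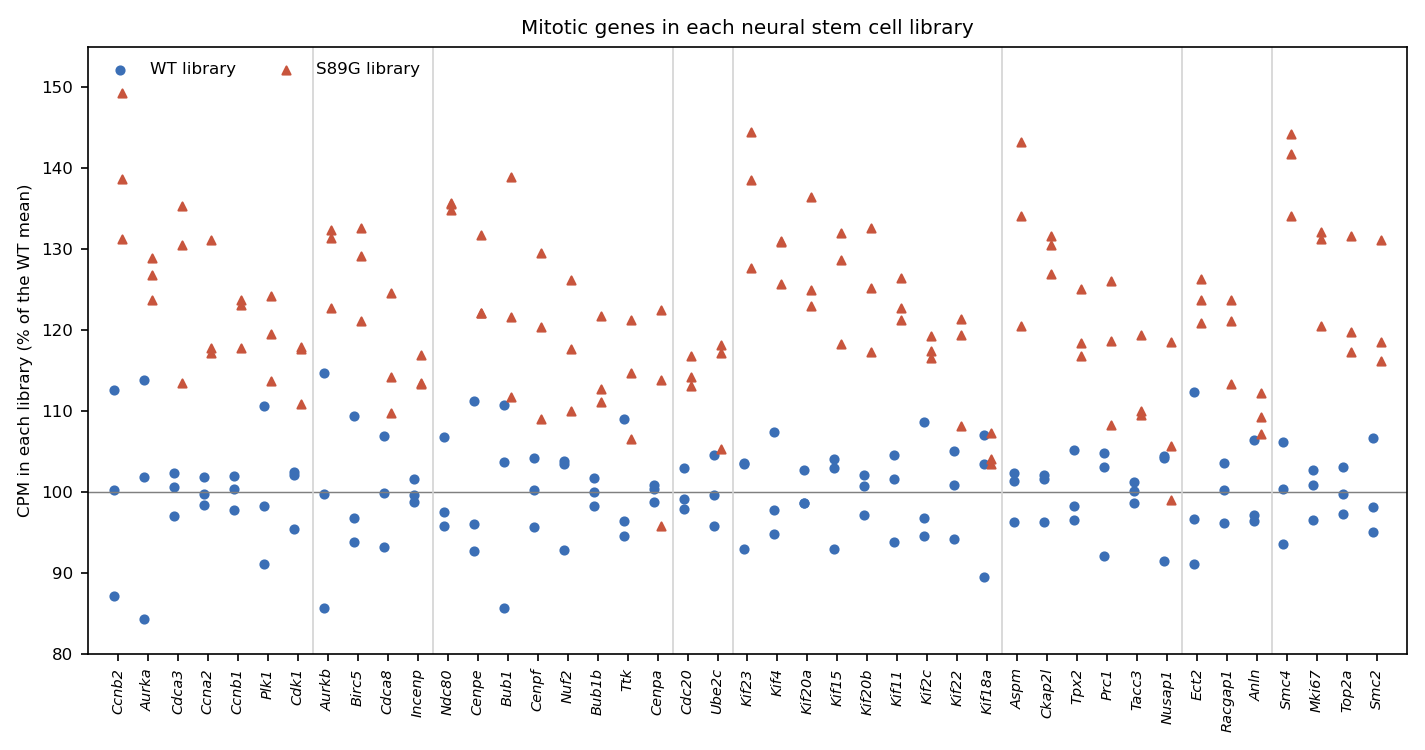
Level of each of the 43 mitotic genes in each NSC library, as a percent of the mean of the 3 WT libraries (vertical axis), with genes grouped by role between the grey lines (horizontal axis); circles are WT and triangles S89G libraries. In 39 genes all 3 triangles lie above all 3 circles; Ttk, Cenpa, Kif18a and Nusap1 are the exceptions.

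Since the genes moved together, the sequence before their start sites was read. Promoters of genes expressed in G2 and M phase are known for a hexamer called the cell cycle genes homology region (CHR), bound by the MuvB core of the DREAM and B-Myb complexes, and for CCAAT boxes, bound by NF-Y. RefSeq promoters (GRCm38.p6, 250 bases before to 50 bases after the start) were available here for 37 of the 43 genes (Ccna2, Aurkb, Incenp, Kif20a, Tpx2 and Smc4 were not analysed here), and were searched on both strands for TTTGAA or TTCGAA as CHR-type letters and for CCAAT. CHR-type letters were found in 30 of the 37 (81.1%), against 19.4% of 27025 mouse promoters of the same length. Within 50 bases on either side of the start they were found in 28 (75.7%), against 5.29% of all. CCAAT was found in 27 (73.0%), against 37.9% of all, and 2 or more copies in 19 (51.4%), against 12.2%. Both kinds stood together in 25 promoters (67.6%), against 7.70% of all, and 1 of the 44 CHR-type matches shared a base with a CCAAT match. In the DNA replication genes described below, 6 of 33 promoters (18.2%) held CHR-type letters while 22 (66.7%) held CCAAT. A match of letters is a description and not a binding site. No other spelling of the hexamer was searched, so promoters without CHR-type letters lack only TTTGAA and TTCGAA.

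The 120 bases before the start are shown for 7 genes with CHR-type letters in that stretch, where the CCAAT letters can be seen beside them. Ckap2l holds a further CHR-type match after the start. Ccnb1 and Nusap1, which lack CHR-type letters in this window, are also shown. Each stretch is written in the direction of the gene, and capitals mark CHR-type and CCAAT letters on either strand.
Cdk1: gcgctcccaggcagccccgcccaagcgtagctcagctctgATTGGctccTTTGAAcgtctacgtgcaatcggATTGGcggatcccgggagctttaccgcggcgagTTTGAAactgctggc
Cdc20: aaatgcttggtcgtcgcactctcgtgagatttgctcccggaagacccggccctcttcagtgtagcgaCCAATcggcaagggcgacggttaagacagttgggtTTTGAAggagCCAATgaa
Ube2c: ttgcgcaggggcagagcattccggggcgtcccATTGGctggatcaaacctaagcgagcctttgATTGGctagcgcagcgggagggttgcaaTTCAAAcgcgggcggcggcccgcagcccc
Kif11: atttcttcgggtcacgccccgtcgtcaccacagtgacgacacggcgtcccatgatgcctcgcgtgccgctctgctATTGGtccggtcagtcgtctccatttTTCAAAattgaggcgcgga
Kif22: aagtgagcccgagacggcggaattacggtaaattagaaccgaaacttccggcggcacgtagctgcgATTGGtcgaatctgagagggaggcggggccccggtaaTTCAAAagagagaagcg
Ckap2l: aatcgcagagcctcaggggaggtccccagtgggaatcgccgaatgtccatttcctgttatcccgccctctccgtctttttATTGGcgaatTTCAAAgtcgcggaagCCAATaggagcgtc
Top2a: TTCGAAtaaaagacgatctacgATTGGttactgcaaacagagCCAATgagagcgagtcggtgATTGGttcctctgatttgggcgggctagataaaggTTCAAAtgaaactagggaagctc
Ccnb1: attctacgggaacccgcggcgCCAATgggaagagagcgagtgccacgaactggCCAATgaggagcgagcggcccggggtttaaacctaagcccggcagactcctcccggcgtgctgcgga
Nusap1: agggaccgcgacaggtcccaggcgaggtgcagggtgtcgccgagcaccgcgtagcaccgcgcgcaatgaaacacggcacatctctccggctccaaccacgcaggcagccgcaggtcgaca

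The stretches lie on GRCm38.p6 at chr10:69352913-69353032 (Cdk1, minus strand), chr4:118437344-118437463 (Cdc20, minus), chr2:164769809-164769928 (Ube2c, plus), chr19:37376262-37376381 (Kif11, plus), chr7:127042421-127042540 (Kif22, minus), chr2:129297213-129297332 (Ckap2l, minus), chr11:99024190-99024309 (Top2a, minus), chr13:100786487-100786606 (Ccnb1, minus) and chr2:119618178-119618297 (Nusap1, plus). Cdk1 held CHR-type letters starting 71 and 15 bases before the start and CCAAT letters starting 80 and 48 bases before it. In Cdc20 a CHR-type match 18 bases before the start stood between CCAAT matches 53 and 8 bases before it. Of the 44 CHR-type matches, 22 lay at or after the start, among them those of Plk1, Aurka and Bub1 and 1 of the 2 of Ccnb2. For 29 of the 37 promoters, bases after the RefSeq start were found in an annotated transcript of the gene. Aurka and Kif11 were among the others, so their positions are less certain. In addition to Ccnb1 and Nusap1, the promoters of Birc5, Cenpe, Nuf2, Kif18a and Tacc3 held no CHR-type letters. Of the 30 genes with CHR-type letters 26 were called higher in NSCs (median log2 fold change 0.29), and of the 7 without them 4 were called (median 0.24). The genes not called were Ttk, Cenpa, Ube2c and Anln in the first set and Kif18a, Tacc3 and Nusap1 in the second.

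**Figure D2:**
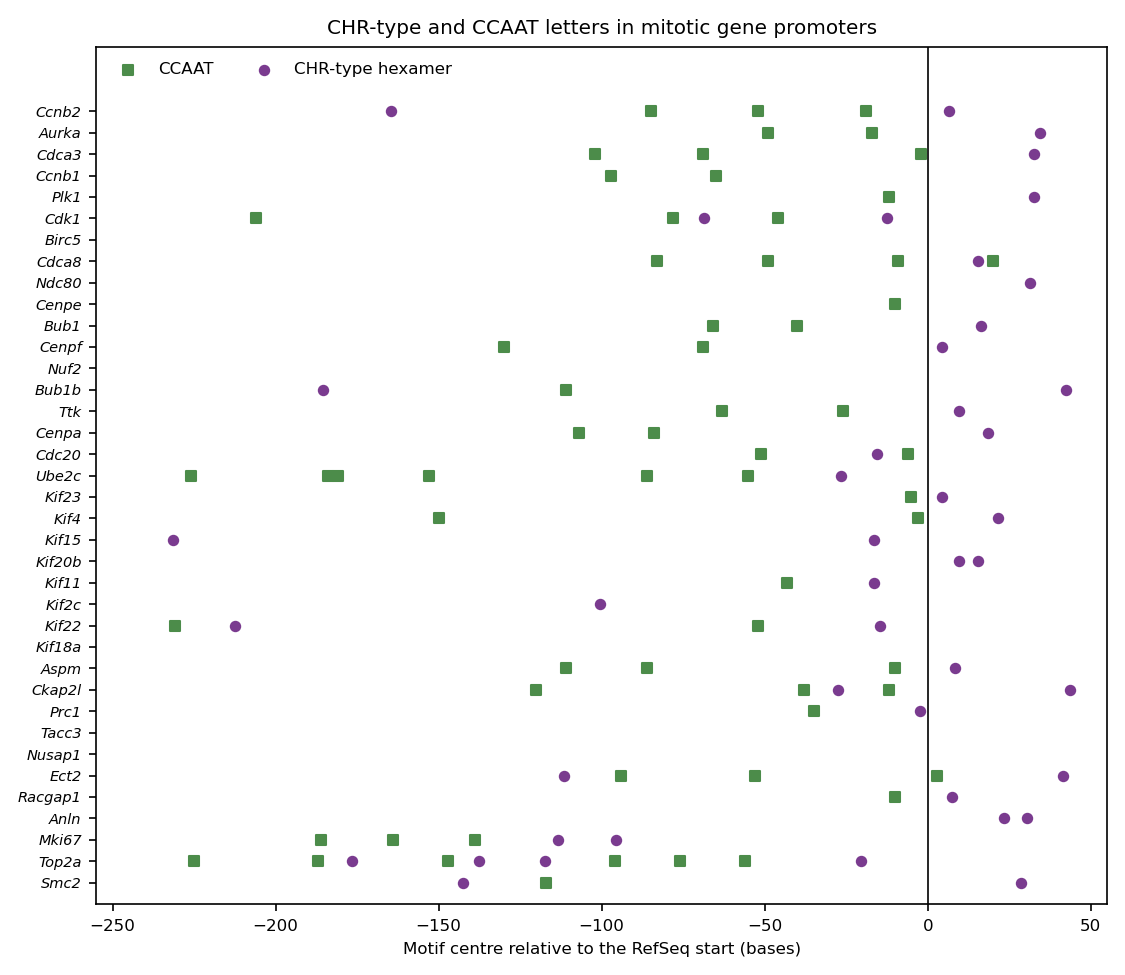
Centre of each CHR-type hexamer (circles) and CCAAT match (squares) relative to the RefSeq start at 0 (horizontal axis, bases) in the promoters of 37 mitotic genes (vertical axis, ordered by role). Of 44 CHR-type matches, 31 begin within 50 bases of the start, and of 63 CCAAT matches 46 begin in the 120 bases before it.

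All 7 genes of mitotic entry rose in S89G NSCs, by log2 fold changes of 0.21 to 0.49. Ccnb2 (ENSMUSG00000032218, GRCm38 chr9:70407692-70421547), which encodes cyclin B2, was measured at 63.2, 48.9 and 56.3 CPM in the WT libraries and 73.7, 77.9 and 83.8 CPM in the S89G libraries (log2 fold change 0.49 ± 0.10, adjusted p = 2.1e-04). Ccnb1, the main cyclin partner of Cdk1, was at 212, 209 and 203 CPM in the WT libraries and 256, 257 and 245 CPM in the S89G libraries (log2 fold change 0.28 ± 0.062, adjusted p = 5.2e-04). Ccna2, cyclin A2, which acts in S phase and G2, was at 214, 219 and 211 CPM in the WT libraries and 251, 253 and 282 CPM in the S89G libraries (log2 fold change 0.29 ± 0.063, adjusted p = 4.4e-04). For these 3 cyclins the lowest S89G library was above the highest WT library, although Ccnb2 varied most among its WT libraries. Cdca3, an F-box-like protein that promotes the loss of the inhibitory kinase Wee1, was at 104, 108 and 109 CPM in the WT libraries and 121, 145 and 139.6 CPM in the S89G libraries (log2 fold change 0.34 ± 0.078, adjusted p = 9.0e-04). Its S89G libraries were more spread than its WT libraries, with replicate 1 the lowest. Aurka, the centrosomal Aurora kinase, Plk1, the Polo-like kinase, and Cdk1 itself rose by 0.34, 0.25 and 0.21 (adjusted p = 0.0041, 0.010 and 0.022). Of the 6 fits with 1 library left out, Aurka lost its call in 1 (without WT replicate 2, adjusted p = 0.11), Plk1 in 2 (adjusted p up to 0.089, without WT replicate 1) and Cdk1 in 3 (adjusted p up to 0.12, without WT replicate 3). Cdk1 was in the other direction in the deposited TPM, at a limma log2 fold change of -0.16 that did not pass the test (adjusted p = 0.54).

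The chromosomal passenger complex, which corrects attachments at the centromere and later moves to the midzone, rose in all 4 of its subunits. Aurkb, its kinase, was at 81.8, 95.2 and 109 CPM in the WT libraries and 126, 125 and 117 CPM in the S89G libraries (log2 fold change 0.36 ± 0.084, adjusted p = 9.9e-04). All S89G libraries stood above the WT libraries, which ranged more widely. Birc5 (survivin), Cdca8 (borealin) and Incenp, the scaffold, rose by 0.35, 0.22 and 0.20 (adjusted p = 0.0014, 0.038 and 0.023). The calls of Cdca8 and Incenp were lost in 4 and 3 of the 6 fits with 1 library left out, with an adjusted p of up to 0.23 for Cdca8 without S89G replicate 3 and 0.11 for Incenp without S89G replicate 2.

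Of the 8 kinetochore and checkpoint genes 6 rose. Cenpe, the kinesin that carries chromosomes to the spindle equator, was at 198, 165 and 171 CPM in the WT libraries and 217, 217 and 235 CPM in the S89G libraries (log2 fold change 0.33 ± 0.068, adjusted p = 1.9e-04). Cenpf (ENSMUSG00000026605, GRCm38 chr1:189640606-189688086), a large kinetochore protein that appears in G2, was at 318, 292 and 306 CPM in the WT libraries and 367, 333 and 395 CPM in the S89G libraries (log2 fold change 0.26 ± 0.060, adjusted p = 9.0e-04). In both genes the sets of libraries did not overlap. Ndc80 and Nuf2, which form the microtubule-binding end of one complex, rose by 0.44 and 0.24 (adjusted p = 0.0028 and 0.034), and the checkpoint proteins Bub1 and Bub1b rose by 0.32 and 0.21 (adjusted p = 0.021 and 0.034). Bub1b lost its call in every fit with 1 library left out (adjusted p up to 0.19 without S89G replicate 3), Bub1 without WT replicate 2 (adjusted p = 0.21) or S89G replicate 1, and Nuf2 in 3 fits (adjusted p up to 0.20, without S89G replicate 3). Nuf2 was at a limma log2 fold change of -0.17 in the deposited TPM (adjusted p = 0.46). Ttk, the kinase that starts the checkpoint, and Cenpa, the centromeric histone H3 variant, did not pass the test, at 0.19 and 0.15 (adjusted p = 0.23 and 0.16). Their groups overlapped, and S89G replicate 2 was the lowest of the 6 libraries for Cenpa.

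Of the partners of the anaphase-promoting complex, Cdc20, its mitotic activator, rose by 0.20 (adjusted p = 0.019), a call lost in 4 of the 6 fits with 1 library left out (adjusted p up to 0.072, without S89G replicate 1). Ube2c, the ubiquitin-conjugating enzyme that works with it, was at 0.19 and did not pass (adjusted p = 0.065), although its groups did not overlap. In the deposited TPM Ube2c was at a limma log2 fold change of -0.08 (adjusted p = 0.84).

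Mitotic kinesins rose in 8 of 9 cases. Kif23, the motor subunit of centralspindlin, was at 88.1, 88.2 and 79.1 CPM in the WT libraries and 123, 109 and 118 CPM in the S89G libraries (log2 fold change 0.45 ± 0.083, adjusted p = 2.8e-05). Kif11, which pushes the spindle poles apart, was at 275, 247 and 268 CPM in the WT libraries and 333, 323 and 319 CPM in the S89G libraries (log2 fold change 0.30 ± 0.059, adjusted p = 8.3e-05), and no library of one genotype reached the range of the other in either gene. Kif4, a chromosome-bound motor that also acts at the midzone, was at 105, 95.6 and 92.7 CPM in the WT libraries and 128, 123 and 128 CPM in the S89G libraries (log2 fold change 0.37 ± 0.079, adjusted p = 3.0e-04). Kif20a, which brings the passenger complex to the midzone, was at 91.4, 87.8 and 87.9 CPM in the WT libraries and 109.5, 111 and 122 CPM in the S89G libraries (log2 fold change 0.36 ± 0.082, adjusted p = 7.7e-04). Kif20a was even among the WT libraries, and the S89G libraries of both genes were all higher. Kif15, which helps Kif11 keep the spindle bipolar, was at 99.5, 101 and 89.9 CPM in the WT libraries and 128, 114 and 124 CPM in the S89G libraries (log2 fold change 0.34 ± 0.080, adjusted p = 0.0013). Kif20b, a motor of late cytokinesis, Kif22, which moves chromosome arms, and Kif2c, a microtubule depolymerase, rose by 0.32, 0.22 and 0.23 (adjusted p = 0.0075, 0.030 and 0.034). Kif2c lost its call in 5 of the 6 fits with 1 library left out (adjusted p up to 0.13, without WT replicate 1), Kif22 in 3 (up to 0.17, without WT replicate 2) and Kif20b without S89G replicate 1 (adjusted p = 0.058). Kif18a (ENSMUSG00000027115, GRCm38 chr2:109280738-109341747), which damps chromosome movements at the metaphase plate, was the least different member, at 58.2, 60.2 and 50.3 CPM in the WT libraries and 58.5, 60.3 and 58.2 CPM in the S89G libraries (log2 fold change 0.07, adjusted p = 0.73), and its groups overlapped.

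Of the 6 spindle and midzone genes 4 rose. Aspm, a spindle pole protein whose loss causes microcephaly, was at 217, 215 and 204 CPM in the WT libraries and 284, 256 and 304 CPM in the S89G libraries (log2 fold change 0.41 ± 0.064, adjusted p = 1.0e-06). Ckap2l, a spindle protein of neural progenitors, was at 145, 137 and 145 CPM in the WT libraries and 181, 186 and 187 CPM in the S89G libraries (log2 fold change 0.38 ± 0.068, adjusted p = 2.4e-05). Tpx2, which activates Aurora A on the spindle, was at 265, 284 and 261 CPM in the WT libraries and 315, 338 and 320.1 CPM in the S89G libraries (log2 fold change 0.26 ± 0.059, adjusted p = 6.7e-04). All 3 genes were higher in each S89G library, Ckap2l with the least spread among them. Prc1, the bundler of midzone microtubules, rose by 0.24 (adjusted p = 0.0095), and lost the call without WT replicate 3 or S89G replicate 2 (adjusted p up to 0.12). Tacc3, a stabiliser of spindle fibres, was at 0.18 and just missed the threshold (adjusted p = 0.059) with groups that did not overlap, and Nusap1, a microtubule-binding spindle protein, was at 0.11 (adjusted p = 0.37) with groups that did.

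In cytokinesis, Racgap1, the GTPase-activating subunit of centralspindlin, was at 287, 297 and 276 CPM in the WT libraries and 347, 355 and 325 CPM in the S89G libraries (log2 fold change 0.25 ± 0.058, adjusted p = 8.6e-04). Ect2, which activates RhoA at the cell equator, rose by 0.31 (adjusted p = 0.0013). Anln, a scaffold of the contractile ring, was at 0.13 and did not pass (adjusted p = 0.25), with an S89G range just above the WT range.

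The chromosome structure proteins held the most abundant members and the firmest calls. Smc4 (ENSMUSG00000034349, GRCm38 chr3:69004738-69034623), a core subunit of condensin, was at 193, 170.2 and 183 CPM in the WT libraries and 244, 262 and 258 CPM in the S89G libraries (log2 fold change 0.49 ± 0.064, adjusted p = 1.7e-08). Mki67 (ENSMUSG00000031004, GRCm38 chr7:135689784-135716361), the Ki-67 protein that coats mitotic chromosomes, was at 1066, 1021 and 1086 CPM in the WT libraries and 1388, 1275 and 1397 CPM in the S89G libraries (log2 fold change 0.36 ± 0.048, adjusted p = 2.8e-08). Top2a, the topoisomerase that untangles sister DNA, was at 727, 685 and 703 CPM in the WT libraries and 827, 844 and 928 CPM in the S89G libraries (log2 fold change 0.30 ± 0.051, adjusted p = 6.4e-06). In all 3 the groups were well apart, and Smc4 matched Ccnb2 for the largest change of the 43. Smc2, the partner of Smc4, was at 212, 195 and 189 CPM in the WT libraries and 235, 230.3 and 259.9 CPM in the S89G libraries (log2 fold change 0.29 ± 0.065, adjusted p = 7.0e-04). Per length, in the deposited TPM, Top2a had the highest level of the 43 genes in WT NSCs at 444 ± 11.9 TPM (SD, n = 3), followed by Ube2c at 354 ± 71.0, Mki67 at 269.7 ± 14.0 and Cdc20 at 263 ± 49.4 TPM, and Kif20b had the lowest at 33.1 ± 1.57 TPM. Mki67 and Cdc20 did not differ beyond their spread.

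**Figure D3:**
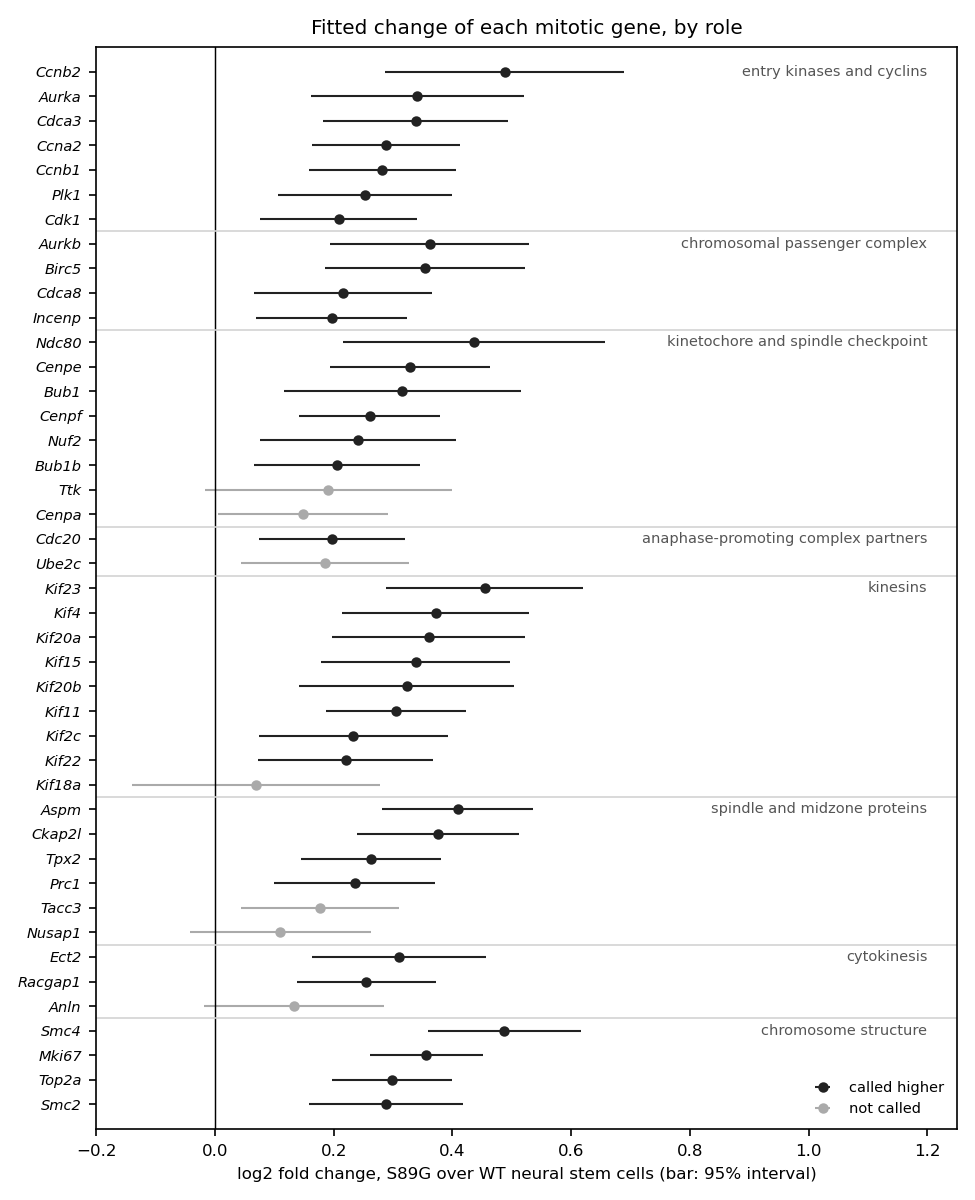
Fitted log2 fold change of each mitotic gene between S89G and WT NSCs (horizontal axis) with its 95% confidence interval (bars), by role; black points passed an adjusted p under 0.05 and grey points did not. All 43 points lie above 0, between 0.07 and 0.49.

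In astrocytes the same genes were further apart between the genotypes, but with 1 library a genotype the difference has no replicate check and no p-value is given. All 43 genes passed the minimum of 10 counts in either library. Their summed level was 304 CPM in the WT and 2106 CPM in the S89G library, 6.93-fold higher, and their share of all counts was 0.0275% and 0.233%. The astrocyte and NSC tables were made separately, with different aligners, so their levels are only set side by side. All 43 had a log2 ratio above 0, against 50.5% of 15680 counted genes. A difference of 2-fold or more was reached by 42 of the 43, all of them higher in S89G, whereas 17.3% of counted genes were that much higher and 12.8% that much lower. For 37 the difference reached 4-fold, whereas 8.64% of counted genes were 4-fold higher and 5.18% were 4-fold lower. The median log2 ratio of the 43 was 2.98, against 0.01 over all counted genes. Scaled by library size alone, the median of all genes moved to 0.30 and that of the 43 to 3.26.

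Cenpf stood furthest apart, with 54 counts (4.26 CPM) in the WT library and 1360 counts (94.5 CPM) in the S89G library, a log2 ratio of 4.42 (a ratio of 22.2 before the prior count, with an exact 95% interval of 16.9 to 29.6 that covers counting error only). Among the entry genes, Ccnb1 had 25 counts (1.97 CPM) in the WT library and 548 counts (38.1 CPM) in the S89G library, a log2 ratio of 4.17. Ccna2 had 49 counts (3.87 CPM) in the WT library and 748 counts (52.0 CPM) in the S89G library, a log2 ratio of 3.70, and Plk1 44 and 521 counts (3.47 and 36.2 CPM). In the WT library both cyclins were counted fewer than 50 times, while Cdk1, their kinase, had a smaller log2 ratio of 2.23. Mki67 had 183 counts (14.4 CPM) in the WT library and 3312 counts (230.0 CPM) in the S89G library, a log2 ratio of 3.98.

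Among the kinesins, Kif23 had 39 and 531 counts (3.08 and 36.9 CPM) in WT and S89G, Kif2c 24 and 303 counts (1.89 and 21.0 CPM), Kif15 26 and 296 counts (2.05 and 20.6 CPM) and Kif11 59 and 645 counts (4.66 and 44.8 CPM), with log2 ratios of 3.23 to 3.52. Of the cytokinesis and spindle genes, Ect2 had 43 and 578 counts (3.40 and 40.1 CPM), Ckap2l 37 and 481 counts (2.92 and 33.4 CPM) and Prc1 96 and 1172 counts (7.58 and 81.4 CPM), with log2 ratios of 3.40 to 3.51. In the kinetochore and checkpoint set, Nuf2 had 34 and 421 counts (2.68 and 29.2 CPM) and Bub1b 39 and 479 counts (3.08 and 33.3 CPM), at 3.38 and 3.37, and Ube2c had 53 and 606 counts (4.18 and 42.1 CPM), at 3.29. These motors, midzone proteins and checkpoint proteins were therefore more than 9-fold apart in this pair of libraries. Another 27 members, Cdk1 included, had log2 ratios from 1.54 to 3.19.

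Kif18a was the only member under 2-fold, with 127 counts (10.0 CPM) in the WT library and 186 counts (12.9 CPM) in the S89G library, a log2 ratio of 0.36. Its ratio had an exact 95% counting interval of 1.02 to 1.63, and it was also the member with the smallest change in NSCs. The next smallest ratios were those of the condensin subunits Smc4 and Smc2, at 1.54 and 1.63, Tacc3 at 1.63, Incenp at 1.67 and Kif20a at 1.73. Smc4 was thus at the top of the NSC changes and near the bottom of the astrocyte ratios. Across the 43 genes the NSC fold change and the astrocyte ratio had a Spearman rho of 0.05 and a Pearson r of 0.14, as a description over genes, which are not independent replicates and share their libraries.

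Markers of other cell types moved with genotype in this pair of libraries. The 10 fibroblast or meningeal genes summed to 35871 CPM in WT and 13553 CPM in S89G, 7 of them at least 2-fold lower and 0 that much higher. Of the 6 endothelial genes counted 4 were at least 2-fold lower in S89G, with the cadherin Cdh5 at 1917 and 23 counts, and Kdr was that much higher. The 10 astrocyte genes summed to 495 and 1427 CPM, with 7 of them 2-fold or more above WT and S100b below WT by as much. The stem cell genes Sox2 and Fabp7 had 30 and 23 counts in WT and 2705 and 4950 counts in S89G, with Hes5 at 0 in both, and the 9 stem cell genes that were counted were all higher in S89G, 6 of them at least 2-fold, for a list sum of 3529 and 6300.1 CPM. Foxj1, of ependymal cells, had 6 and 3063 counts. The 8 microglial genes summed to 501 and 713 CPM, 3 of them 2-fold or more above WT and 1 below WT by as much. The part of these cell types in the mitotic ratios was not tested, and with 1 library a genotype library and genotype cannot be told apart.

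**Figure D4:**
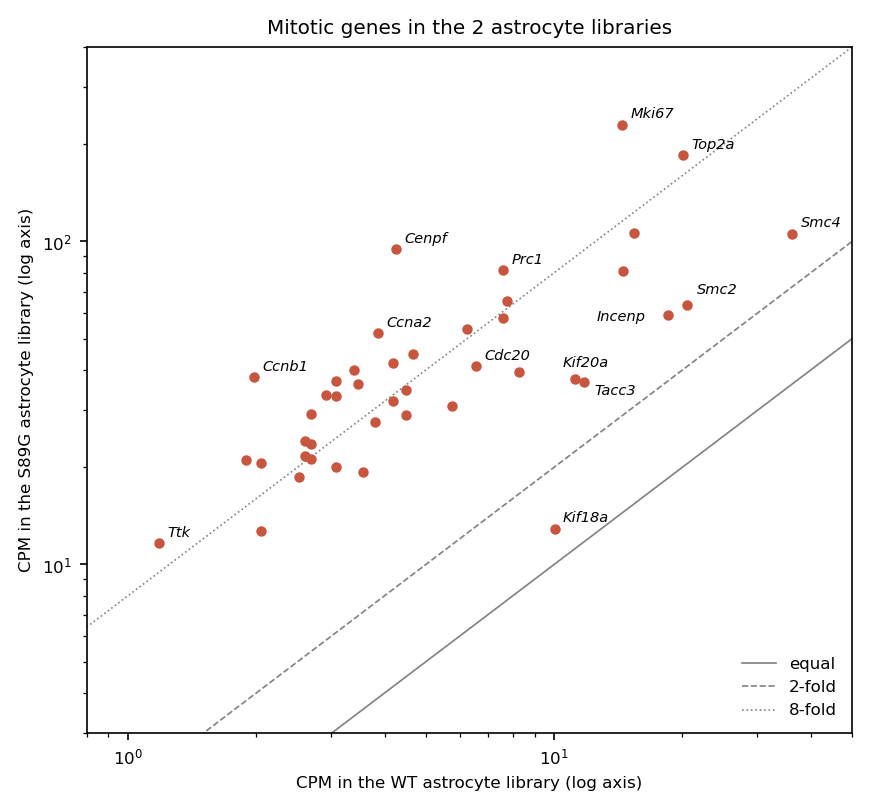
Level of each mitotic gene in the S89G astrocyte library (vertical log axis, CPM) against the WT astrocyte library (horizontal log axis, CPM), 1 library each; the lines mark equal levels and 2-fold and 8-fold differences. Of 43 points 42 lie above the 2-fold line and 22 above the 8-fold line; Kif18a alone lies between equal and 2-fold.

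Read sharing touched some members. Near-identical transcripts at another locus (95% identity over at least 200 bases) were found for Ccnb1, Cdc20, Mki67, Ndc80 and Racgap1, of which the pseudogene of Ndc80 had a mean of 45 counts in NSCs and 9 and 57 counts in WT and S89G astrocytes, so Ndc80 is uncertain, and the copies of the others that were measured had a mean under 1 count in NSCs. Exons of 13 members overlapped an antisense gene, most of all Kif20a with Cdc23 (1271 bases), Prc1 with Rccd1 (911) and Kif4 with Pdzd11 (832). The library kit was not stated to keep strand, so reads of such pairs cannot be told apart. The partners of Kif20a, Prc1 and Kif4 were close to level in astrocytes, with Cdc23 at 860 counts in WT and 973 in S89G, Rccd1 at 140 and 121, and Pdzd11 at 340 and 454. Oip5, which overlaps Nusap1 over 172 bases, was not level, at 9 counts in WT and 52 in S89G.

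Other genes of the division cycle, from lists that exclude the 43, were counted in the same fit. Of 109 further mitotic genes 30 rose and 2 fell in S89G NSCs, where 7.08% of all tested genes rose and 8.76% fell. The median log2 fold change of the 109 was 0.17, against 0.29 for the 43. In astrocytes 63 of the 109 were at least 2-fold higher, against 17.3% of all counted genes. Of 36 other kinetochore and checkpoint genes 11 rose, among them the kinetochore scaffold Knl1 (0.37, adjusted p = 3.8e-04), with Mad2l1 0.29, Kntc1 0.26, Spc25 0.34 and Hjurp 0.16, and Zwint fell (-0.16, adjusted p = 0.047). Of 30 other spindle and cytokinesis genes 7 rose, led by Pimreg (0.45, adjusted p = 2.1e-06), with Knstrn 0.29, Nek2 0.36, Plk4 0.36 and Hmmr 0.26, and Numa1, which anchors microtubules at the poles, fell (-0.27, adjusted p = 4.6e-04). Condensin and cohesin gave 6 rises of 16, namely Ncapd2 0.24, Rad21 0.21, Ncapg2 0.23, Ncapd3 0.28, Ncapg 0.26 and Stag1 0.23. In the entry switch, 4 of 11 rose, and Cks2, a small subunit that binds Cdk1, had a larger fitted change than any of the 43, at 0.61 (adjusted p = 8.9e-05), beside Pbk 0.40, Ccnf 0.23 and Wee1 0.34.

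A list of subunits of the anaphase-promoting complex together with its coactivator Fzr1, its inhibitor Fbxo5 and the ubiquitin-conjugating enzyme Ube2s gave 2 rises of 16, Ube2s (0.30, adjusted p = 2.2e-04) and Anapc5 (0.16, adjusted p = 0.038), with a median of 0.11 in NSCs and a median astrocyte log2 ratio of -0.0019, and Fbxo5 was the only one of them at 2-fold or more in astrocytes (2.26). The regulators of mitotic transcription gave 2 of 13, Lin54 (0.35, adjusted p = 0.024) and Tfdp1 (0.18, adjusted p = 0.027), with medians of 0.07 in NSCs and 0.09 in astrocytes. In astrocytes 3 of the 13 were at least 2-fold higher, Foxm1 (log2 ratio 2.28), Mybl2 (1.97) and Rbl1 (1.11), and 0 that much lower. These calls, and the 2 of 16 above, stand beside 7.08% of all tested genes called higher in NSCs. Over all counted genes 17.3% were at least 2-fold higher in astrocytes. Of 41 DNA replication genes 13 rose and 0 fell, led by the helicase subunits Mcm4 (0.31, adjusted p = 3.4e-04) and Mcm7 (0.28, adjusted p = 4.0e-04), with Rpa1 0.29, Pola1 0.37, Rrm2 0.21 and Ccne2 0.44. Their median was 0.20 in NSCs and 1.04 in astrocytes, where 21 of 40 were at least 2-fold higher. Whether these lists differ from the 43 was not tested.

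**Figure D5:**
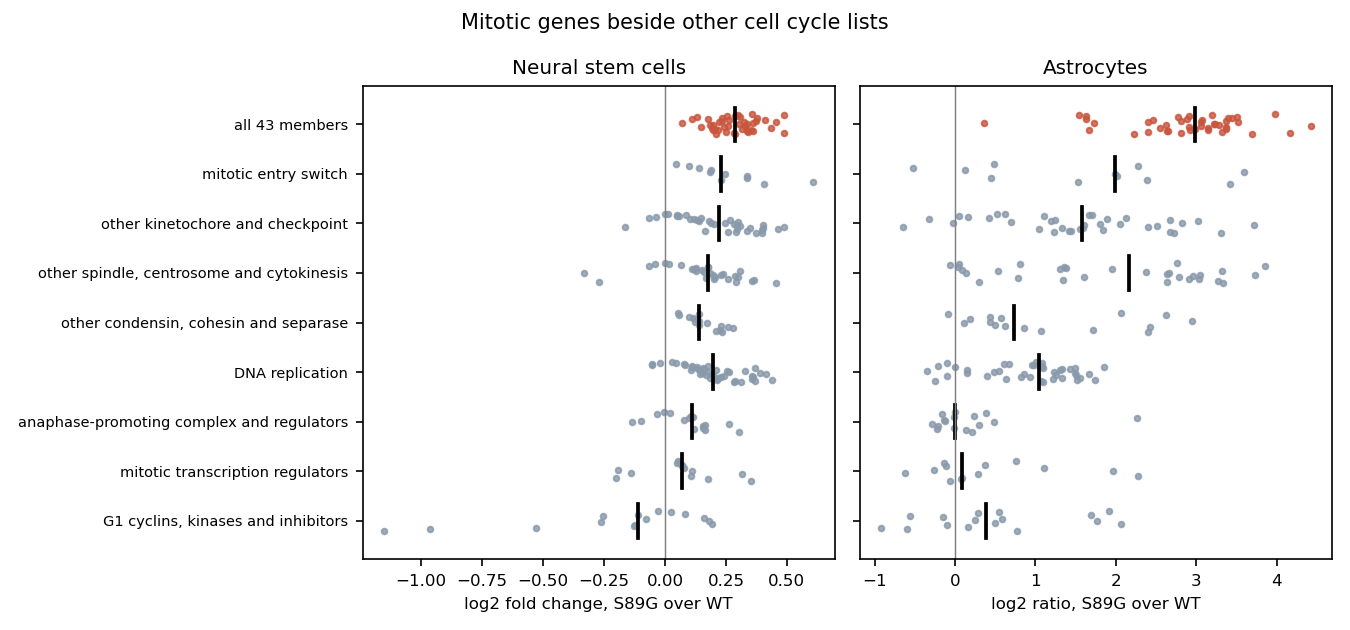
Log2 fold change in NSCs (left) and log2 ratio in astrocytes (right) for the 43 members and 8 other cell cycle lists, with 1 point a gene and a black bar at each list's median. The median of the 43 is 0.29 in NSCs and 2.98 in astrocytes, and the G1 list is the only one with a median below 0 in NSCs, at -0.11.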

How the data were processed

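RNA of cultured NSCs and astrocytes was sequenced after adapter, poly-N and low-quality reads were removed. For NSCs the authors deposited counts per gene and TPM (HISAT2, featureCounts and StringTie, GRCm38, named in the submitters' processing notes without role), and for astrocytes they deposited counts and FPKM (TopHat2 2.0.9 with Bowtie2 2.0.6); the counter of the astrocyte table and its build are not given in the sources used here.

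Genes of low NSC count were removed by filterByExpr, and the rest were tested after TMM scaling with edgeR 4.0.16 (quasi-likelihood, 3 S89G against 3 WT libraries, genotype as the only term, Benjamini-Hochberg over 11194 genes, threshold 0.05). Astrocyte ratios were taken between TMM-scaled CPM, adding a prior count of 2, and at least 10 counts in either library. The deposited TPM and FPKM were used on a log2 scale as alternatives (limma 3.58.1 for TPM, pseudocounts 1 and 0.1, which understate changes of low genes), and DESeq2 1.42.0 was another. NSC libraries of one genotype differed by a chi-square of 1.07 to 1.51 per gene, where counting noise gives 1, so they were kept as separate libraries; whether they are separate cultures is not shown by this. Depth was 2354615 to 2588130 counts in NSCs and 13016924 to 14008670 in astrocytes, and each member had at least 96 counts in every NSC library and at least 15 in every astrocyte library. The members and lists were chosen with earlier results of these data known. All 43 members were named, with values per library for the 20 smallest adjusted p in NSCs and the 15 largest ratios in astrocytes.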

Additional observations from a re-analysis of the deposited data

How the results depend on the processing

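The NSC count of 36 genes called higher was 35 or 36 under RLE factors, upper-quartile factors, library size alone, TMM without cell cycle genes, no filter and at least 10 counts in every library, and 26 at an adjusted p under 0.01. It was 22 with DESeq2 and 1 with limma on log2(TPM + 1) or log2(TPM + 0.1); the cause was not tested. Leaving out 1 library gave 27 to 33 called higher, 0 called lower and medians of 0.27 to 0.31, and no fit called a member lower. Direction was reversed for Cdk1 (-0.157 and -0.158), Nuf2 (-0.174 and -0.176) and Ube2c (-0.0812 and -0.0814) with limma on TPM at pseudocounts of 1 and 0.1, and for Kif18a without WT replicate 3 (-0.0053, the lowest of 6 such fits that reached 0.12).

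With the replicate number as a block 36 members were called higher. Same-numbered libraries did not deviate together (correlations of -0.017 to 0.028 after removing genotype means, and 2 of 6 libraries correlated best with their own number), so the numbers are not taken as pairs.

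Over all tested genes 792 were called higher and 981 lower, against 348 and 503 with DESeq2, 38 and 107 with limma at a pseudocount of 1, and 31 and 85 at 0.1. Of 1347 values of single genes and lists under the alternatives, 130 lost a call, 3 gained one and 7 changed direction. A further 98 moved beyond a fixed margin, which was not the spread between libraries.

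In astrocytes 42 members stayed at least 2-fold higher under each other scaling, unit, prior count and filter tried, with medians of 2.67 to 3.28, and 37 at 4-fold. With 1 library a genotype this shows stability to processing only. Member counts were as low as 96 in the NSC libraries, and whether depth limited the calls was not tested. In the WT astrocyte library 20 members had under 50 counts.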

Other observations

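Of 15 tested G1 genes, which act before DNA replication, 5 fell and 0 rose in S89G NSCs, where 8.76% of all tested genes fell. The other 10 were not called, and 5 of them had a fitted change above 0, up to 0.19 for Cdkn2c (adjusted p = 0.051). Cdk6, a kinase of the G1 cyclins, was at 56.9, 56.3 and 49.9 CPM in the WT libraries and 28.2, 27.4 and 18.0 CPM in the S89G libraries (log2 fold change -1.15 ± 0.13, adjusted p = 3.7e-10). Cdkn2a, which encodes inhibitors of proliferation, was at 65.3, 66.8 and 70.7 CPM in the WT libraries and 27.0, 34.7 and 42.1 CPM in the S89G libraries (log2 fold change -0.96 ± 0.12, adjusted p = 1.9e-09). Btg1, an antiproliferative gene, fell by 0.53 (adjusted p = 7.9e-04). The groups of these 3 genes did not overlap. Ccnd2 and Ccnd1, the D cyclins, fell by 0.13 and 0.12 (adjusted p = 0.038 and 0.046), from WT means of 2394 and 2404 CPM. In the astrocyte libraries the list had a median log2 ratio of 0.39, with 4 of 16 genes at least 2-fold higher and 0 that much lower. Over all counted genes 17.3% were that much higher and 12.8% that much lower. Cdk6 was at a log2 ratio of 0.78 and Cdkn2a at -0.60.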
